A study of Mus musculus with 2 samples.

Results

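Spp1 and Postn, 2 of the 32285 genes in each matrix, encode the secreted matrix proteins osteopontin and periostin. They were followed in single cells of mouse lungs, in pericytes first and then in the fibroblast, myofibroblast and endothelial types around them. Both genes were taken by symbol and were chosen by their measured levels in earlier results of these data, where they were high in pericytes, so their levels by cell type are given as a description. The animals were C57Bl mice whose lungs were chimeric 6 months after they had received a single-cell suspension from tdTomato donors. The lungs of 3 such animals were pooled, and CD45-negative cells, a gate that excludes leukocytes, were sorted into tdTomato-positive cells (the donor library) and tdTomato-negative cells (the recipient library). The labels used here give neither the donor strain nor the promoter that drives the reporter, and recipient cells came from the same pooled lungs, so no untransplanted lung serves as a control. Each group was 1 library, so no test between groups was possible. Every interval is a 95% interval that covers counting error only.

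Matricellular proteins are secreted into the matrix and signal to cells there without serving mainly as a scaffold. Osteopontin binds integrins and CD44 and was first known from bone, where it belongs to a cluster of phosphorylated mineral-binding proteins. Periostin binds integrins, collagen and fibronectin and helps to activate the collagen crosslinking enzyme lysyl oxidase. Pericytes are the mural cells that wrap capillaries, and in the lung they lie against the thin capillary wall.

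The donor library held 6319 barcodes with 37997269 UMIs (molecular barcodes that count transcripts) and the recipient library 3784 with 26201315. After filtering, 4854 and 3298 cells were used, with medians of 6231 and 6481 UMIs. The libraries shared 816 barcodes, and the copy with fewer UMIs was left out, in 736 cases the donor copy. A gate on 8 pericyte markers (Higd1b, Cox4i2, Cspg4, Pdgfrb, Trpc6, Notch3, Lamc3 and Ndufa4l2) found 452 recipient and 28 donor pericytes, with a median of 7 markers detected in each. Of the recipient pericytes, 8 lay within 1 marker of another type and 115 sat at the limit of 2 UMIs from lists of other lineages. Of the donor pericytes, 0 and 14 did so. Cells that passed the marker gate but exceeded that limit numbered 99 and 27. Of 7 pericyte genes not used by the gate, 6 were at least 2-fold higher in recipient pericytes than in every other recipient type of at least 20 cells, where 2.89% of all 11932 genes were. Among the 6 were Gucy1a1, Vtn and Kcnk3. The exception was Rgs5, at 15.1 CPM (UMIs of a gene per 1000000 UMIs of the summed cells). It was higher in recipient myofibroblasts, with 44 UMIs and 48.5 CPM. Macrophages are a well known source of osteopontin. Recipient pericytes held 48 UMIs of a list of 9 macrophage genes, 20 of Lyz2, 18 of Cd68, 9 of Gpnmb and 1 of Mrc1. Marco, Adgre1, C1qa, C1qb and Trem2 were at 0, and donor pericytes held none of the 9. Ptprc, which encodes CD45, was at 0 in the pericytes of both libraries. The sort for CD45-negative cells and the gate's limit on UMIs of other lineages, Ptprc among them, both select for a low value.

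Spp1 (ENSMUSG00000029304) lies on the forward strand at chr5:104435118-104441050 and Postn (ENSMUSG00000027750) on the forward strand at chr3:54361109-54391037, both in GENCODE M21 on GRCm38, the build called mm10. The 250 bases before each gene's start are shown because the 2 genes were high in the same cells. They come from RefSeq on GRCm38.p6, at chr5:104434861-104435110 and chr3:54360857-54361106, from the listed start nearest to the annotated one. Each is printed 5′ to 3′ on the forward strand, with matches to 5 short motifs in capitals.
Spp1: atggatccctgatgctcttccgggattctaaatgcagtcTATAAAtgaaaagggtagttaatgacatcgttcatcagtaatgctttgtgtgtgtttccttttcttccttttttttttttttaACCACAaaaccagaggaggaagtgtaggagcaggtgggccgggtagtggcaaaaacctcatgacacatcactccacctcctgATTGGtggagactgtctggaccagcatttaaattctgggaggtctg
Postn: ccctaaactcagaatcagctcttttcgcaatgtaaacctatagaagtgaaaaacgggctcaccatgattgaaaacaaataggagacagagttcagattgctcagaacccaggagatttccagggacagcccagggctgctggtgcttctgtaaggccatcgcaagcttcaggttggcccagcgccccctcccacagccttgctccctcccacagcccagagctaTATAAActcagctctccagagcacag
The motifs, searched on both strands, were TATAAA for the box bound by the basal machinery, CCAAT for the box bound by nuclear factor Y, TGTGGT for the RUNX core, TGANTCA for the AP-1 site and GGAATG for the TEAD site. The Postn window held a single match, a TATAAA from 26 to 21 bases before the start. The Spp1 window held a TATAAA at 211 to 206 bases, TGTGGT on the reverse strand, printed as ACCACA, at 128 to 123 bases and CCAAT on the reverse strand, printed as ATTGG, at 46 to 42 bases before the start. Among all 32851 windows of that length in the table, TATAAA occurred in 12.4%, CCAAT in 33.8%, TGTGGT in 14.0%, TGANTCA in 6.75% and GGAATG in 12.6%. TATAAA was the only one of the 5 motifs found in both windows, and no 2 matches overlapped. A match is a string of letters and not a binding site.

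Spp1 was among the most abundant transcripts of pericytes in both libraries. Recipient pericytes held 53183 Spp1 UMIs, 22881 CPM (22687 to 23076), which was 2.29% of all their UMIs and rank 2 of all genes by UMI count. Donor pericytes held 4033 Spp1 UMIs, 28815 CPM (27932 to 29718), 2.88% of their UMIs and again rank 2. A Spp1 UMI was found in 435 of 452 recipient pericytes, 96.2% (exact binomial interval 94.0 to 97.8), and in 27 of 28 donor pericytes, 96.4% (81.7 to 99.9). Aerocytes, the gas-exchange capillary cells, served as the measure of free RNA, and 32.4% of them held a Spp1 UMI in the recipient library at a median of 7383.5 UMIs per cell against 4942.5 in pericytes. With every cell thinned to 2000 UMIs, the shares were 95.5% of pericytes and 11.9% of aerocytes.

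Postn was detected in nearly every pericyte. Recipient pericytes held 6700 Postn UMIs, 2883 CPM (2814 to 2952), 0.288% of their UMIs and rank 20 by UMI count. Donor pericytes held 427 Postn UMIs, 3051 CPM (2768 to 3354), also rank 20. A Postn UMI was found in 451 of 452 recipient pericytes, 99.8% (98.8 to 100), and in 28 of 28 donor pericytes (87.7% to 100%). In recipient aerocytes 6.06% of cells held one. After thinning, the shares were 98.0% of recipient pericytes, with 5 shallower cells left out, and 1.58% of aerocytes.

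**Figure D1:**
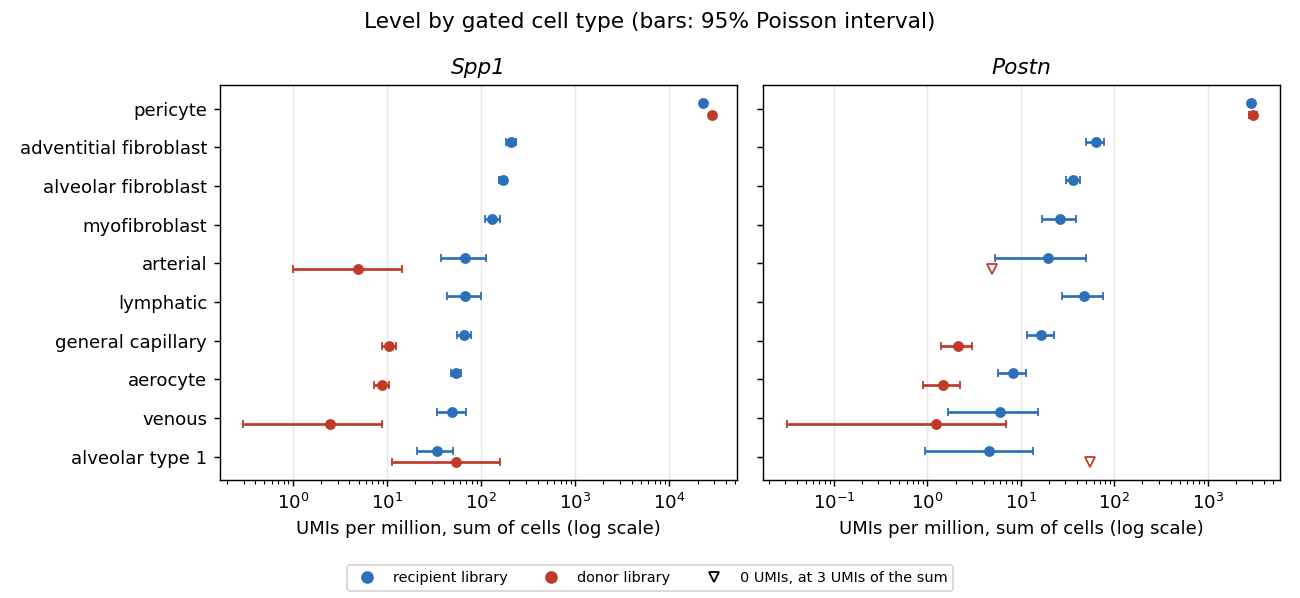
Level of Spp1 (left) and Postn (right) in each gated type with at least 20 cells, in CPM of the summed cells on a log axis; points are the recipient (blue) and donor (red) libraries and bars are 95% Poisson intervals. Pericytes stand at 22881 and 28815 for Spp1, and the next recipient type, adventitial fibroblasts, at 209.

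Spp1 varied widely from pericyte to pericyte. Recipient pericytes held 0 to 464 Spp1 UMIs, with quartiles of 66, 105 and 164. Between its quartiles the level per cell ran from 14273 to 32262 CPM, with a median of 22269. Donor pericytes held 0 to 277 Spp1 UMIs, with a median of 128 and quartiles of 23816 and 37577 CPM. Postn ran from 0 to 55 UMIs in recipient pericytes (quartiles 9, 14 and 20) and from 5 to 27 in donor pericytes (median 15.5). At 2000 UMIs per cell, the variance of Spp1 in recipient pericytes was 18.5 times its mean and that of Postn 1.98 times, where Poisson counting alone gives 1. In 27 donor pericytes these ratios were 9.34 and 1.37. This ratio grows with a gene's mean, which was 48.0 UMIs for Spp1 and 5.99 for Postn. The coefficient of variation was 0.620 for Spp1 and 0.575 for Postn in recipient pericytes, and 0.400 and 0.460 in donor pericytes. These coefficients include counting error, which is a larger part of the Postn values because of its lower mean. They therefore do not rank the 2 genes by their spread beyond counting. The 45 recipient pericytes with the most Spp1 held 23.0% of its UMIs, and the 45 with the most Postn held 21.2%, so neither sum rested on a few cells.

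A few recipient pericytes held little or no Spp1, with a gap in the UMI counts above them. There were 17 cells with 0 Spp1 UMIs, 3 with 1, 2 with 2 and 1 with 3, none with 4 to 8, and 429 with 9 or more. On the CPM scale, where depth is taken into account, the gap closed, with the highest of the 6 cells of 1 to 3 UMIs at 1419 CPM and the lowest of the 429 at 1969 CPM. Postn showed no gap in its UMI counts, with 91 recipient pericytes at 4 to 8 UMIs. All 17 cells without Spp1 held Postn. In the donor library 1 pericyte had 0 Spp1 UMIs and the other 27 had 9 or more.

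The amounts of the 2 genes per cell were close to unrelated within the pericytes. Across 452 recipient pericytes of 1 library, the Spearman correlation of their CPM was 0.040 and the Pearson correlation 0.041, and across 28 donor pericytes they were -0.13 and -0.096, all given as a description. In 4 groups of 113 recipient pericytes ranked by Spp1 (7120, 17865, 26834 and 42854 CPM), Postn stood at 2811, 2946, 2875 and 2905 CPM. In the reverse direction, Spp1 in the 4 groups ranked by Postn was 21751, 23544, 20875 and 25489 CPM.

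**Figure D2:**
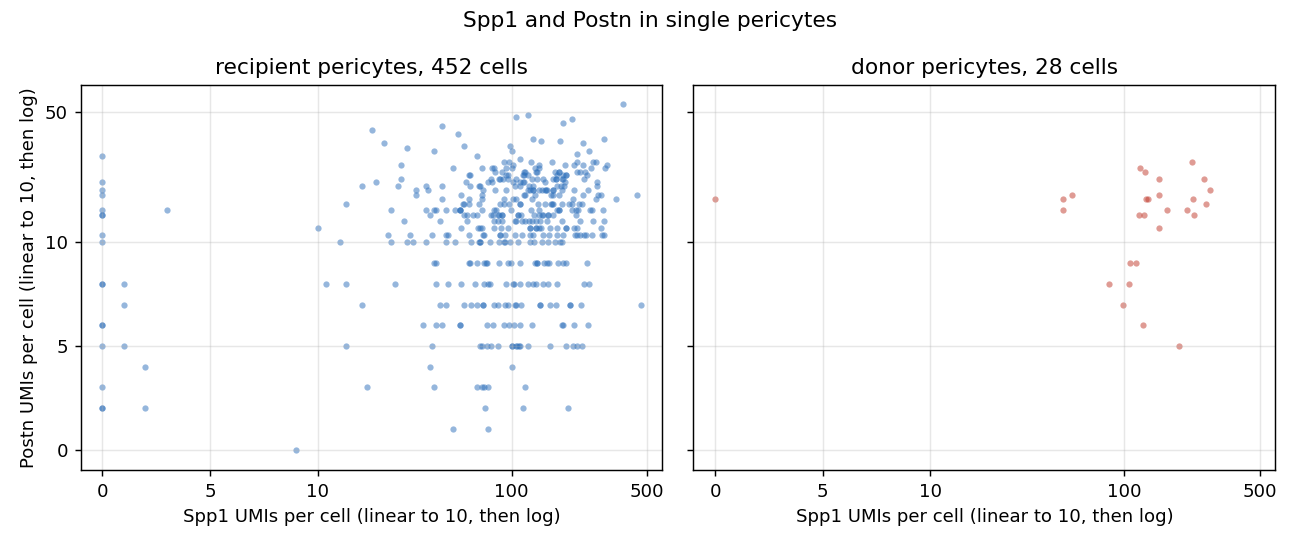
Spp1 against Postn UMIs in each of 452 recipient (left) and 28 donor (right) pericytes, 1 point per cell, on axes that are linear to 10 and logarithmic above. A column of 17 recipient cells and 1 donor cell stands at 0 Spp1 UMIs with Postn present, and no cell of either library lies at 4 to 8.

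Donor pericytes held more Spp1 than recipient pericytes, and for Postn the interval of the ratio included 1. The Spp1 level was 1.26-fold higher in donor pericytes (exact conditional interval 1.22 to 1.30), and their middle range of 23816 to 37577 CPM overlapped that of the recipient cells. The Postn ratio was 1.06 (0.957 to 1.17). With up to 5 UMIs of other lineages allowed the Spp1 ratio was 1.02, and it turned around in the cells left out for UMIs of other lineages, which stood at 13179 CPM in 27 donor cells and 20728 CPM in 99 recipient cells, a ratio of 0.636. Postn in those cells was 2328 and 2411 CPM. Of the 12 matricellular genes with at least 20 UMIs over both groups, 0 were 2-fold higher in donor pericytes, where 4.95% of all 9066 genes tested were, and 2 were 2-fold lower, where 8.89% of all were. The 2 lower ones were Thbs1 (3 donor UMIs, 0.433, 0.088 to 1.30) and Tnxb (1 donor UMI, 0.169, 0.0042 to 0.966).

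The gated pericytes without Spp1 held more of the contractile transcripts. The 17 cells were compared with the 430 recipient pericytes that held 3 or more Spp1 UMIs, with Spp1 itself taken out of the totals. The cells without Spp1 had a median of 6 of the 8 pericyte markers (4 to 8) and 10308 CPM of the panel against 12115, and since the gate used this panel, its presence was set by the choice of cells. Their median depth was 5494 UMIs against 4942.5, and their median mitochondrial share 3.80% against 3.52%. None of the 17 was among the highest doublet scores, and 2 shared a barcode with the donor library. They held 0 UMIs of the 5 leukocyte genes, which the sort and the gate's lineage limit also select for. Postn stood at 2112 CPM in them, with 2 to 29 UMIs per cell, against 3006 CPM, a ratio of 0.703 (0.605 to 0.812). The pericyte genes Gucy1a1, Kcnk3 and Vtn, which the gate did not use, showed ratios of 0.688, 0.681 and 0.721.

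Acta2, smooth muscle actin, stood at 3008 CPM in the cells without Spp1 and 44.5 CPM in the others, 67.6-fold higher (53.4 to 86.2). Per cell it ran from 0 to 67 UMIs with a median of 6, and it was found in 13 of 17 cells against 19 of 430. Adam33, a membrane metalloprotease, had 57 UMIs in 11 of the 17 cells and 2 UMIs in the 430, a ratio of 679.8 (179.8 to 5749). Tagln (transgelin, an actin-binding protein of smooth muscle) was 17.5-fold higher, Eln (elastin) 35.8-fold, Aspn (asporin, a collagen-binding proteoglycan) 34.5-fold, Thbs1 (thrombospondin 1) 29.9-fold, Ccn5 21.3-fold and Mustn1 15.3-fold. These 8 genes had the largest ratios by the naming rule. Rgs5, a regulator of G-protein signalling often used as a pericyte marker, had 32 UMIs in 8 of the 17 cells and 3 in the 430, too few for the test over all genes.

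Of the 10 genes of the contractile list, 8 had enough UMIs to be compared, and 8 were at least 2-fold higher in the cells without Spp1, where 5.82% of all 6203 genes compared were. Their median log2 ratio of cells with Spp1 over cells without was -2.06, against 0.084 over all genes compared. Myh11, smooth muscle myosin, was 2.30-fold higher at 277 CPM, and Cnn1 (calponin) was at 0 UMIs in both sets of cells. The smooth muscle panel summed to 1548 CPM in the cells without Spp1 and 651 CPM in the others. For the myofibroblast panel, which includes Aspn, the sums were 841 and 608 CPM. The alveolar fibroblast panel stood at 973 and 1454 CPM and the adventitial one at 1394 and 1697 CPM. Whether the 17 cells are pericytes or a contractile cell type close to them was not tested. Of 14 early response genes, which dissociation can induce, 5 were at least 2-fold higher in them, among them Fosl2 (4.82-fold), Atf3 (4.35-fold) and Egr1 (2.55-fold), and the part of this in the result was not tested. Of 10 matricellular genes compared, 6 were higher in the cells without Spp1 (Thbs1, Ccn5, Tnxb, Sparcl1, Ccn1 and Ccn2), and 1, Ccn4, was lower. Of 12 matrix genes compared, 4 were higher, with Col3a1 at 10.5-fold, whereas Col4a1 and Col4a2, the basement membrane collagens, showed ratios of 0.825 and 0.780.

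Ccn4 and Sox11 were found in part of the cells with Spp1 and were almost missing from the 17 cells. At least 2-fold higher in the 430 cells were 15.9% of the genes compared, but the 17 cells held only 90415 UMIs, so a low gene could reach that ratio by few counts, and 47 genes met the naming rule. Ccn4, a matricellular CCN protein, had 466 UMIs in 242 of 430 cells and 1 UMI in the 17, a ratio of 19.5 (3.49 to 773). Sox11, a transcription factor, had 342 UMIs in 165 of the 430 cells and followed at 14.3 (2.56 to 568). Ablim1, an actin-binding LIM protein, was at 11.2. Sox11 and Ablim1 each had 1 UMI in the 17 cells. D1Ertd622e, Hs3st1, Sdhb, Grk3 and Arhgap31 made up the rest of the 8, at 12.2, 10.7, 10.4, 8.64 and 7.43. Epor (erythropoietin receptor), Itih5 (a hyaluronan-binding protein) and Fam20a (a partner of the kinase that phosphorylates osteopontin) were found in 162, 155 and 146 of the 430 cells and in 0 of the 17. These 3 were chosen after their values had been seen.

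The single donor pericyte without Spp1 shared these transcripts. It held 41 Acta2, 14 Tagln, 5 Adam33 and 3 Rgs5 UMIs, beside 17 Postn, 12 Higd1b and 23 Cox4i2 UMIs, and 0 of Epor, Itih5, Fam20a and Ccn4. The other 27 donor pericytes held 2 Acta2 UMIs, 3 Tagln UMIs and 0 of Adam33 and Rgs5 in all. It is 1 cell, and its genes were looked at because of the recipient cells. The 6 recipient pericytes with 1 to 3 Spp1 UMIs, of which the cell with 3 is also among the 430, showed no single pattern. Their Acta2, at 584 CPM in 3 cells, and Adam33, at 227 CPM, lay between the other sets, but Rgs5 and Thbs1 were at 0, Itih5 was at 584 CPM, and Postn at 1331 CPM was below both.

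**Figure D3:**
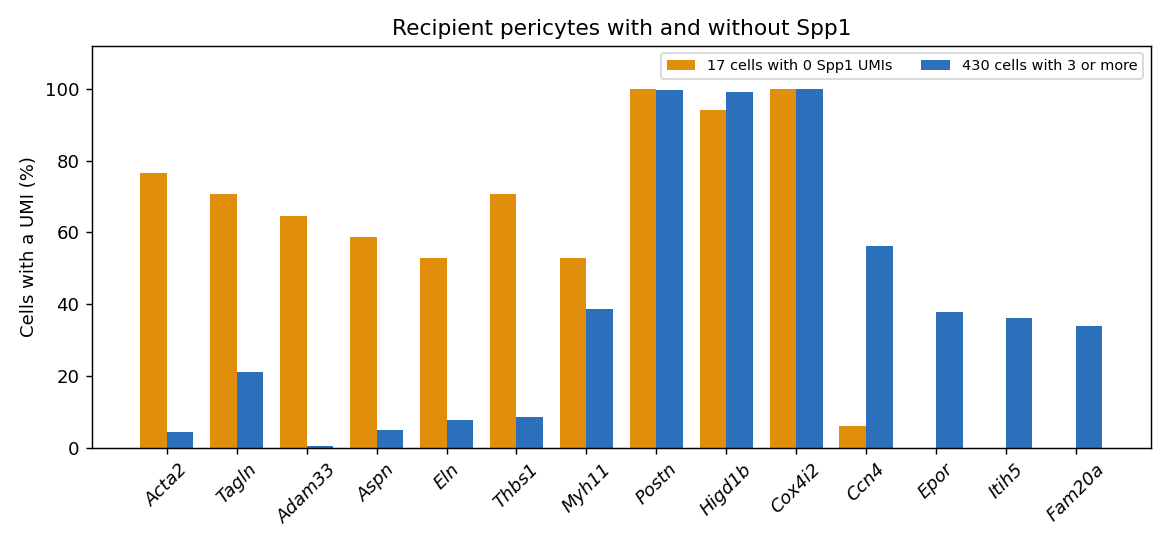
Share of recipient pericytes with a UMI of each gene, in % of cells, for 17 cells with 0 Spp1 UMIs (orange) and 430 cells with 3 or more (blue). Acta2 was found in 76.5% and 4.42% of them, Postn in 100% and 99.8%, and Epor, Itih5 and Fam20a in none of the 17.

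Among pericytes that all held Spp1, its amount went with few other genes. Between the 107 cells with the most and the 107 with the least Spp1 among those with 3 or more UMIs, 7 of 3811 genes compared (0.184%) were 2-fold higher with more Spp1 and 31 (0.813%) were 2-fold lower. Again Acta2 led those lower, with 87 UMIs in 13 of the cells with the least Spp1 and 4 UMIs in 3 of those with the most, 17.2-fold (6.50 to 64.7). Tagln was 5.59-fold higher in the cells with the least Spp1, and the others by the naming rule were Hhip, Cxcl10, Gbp2, Cdkn1a, Cxcl1 and Jade2. Among the cells with the least Spp1, the highest cell for Hhip held 53 of its 61 UMIs. The highest cell held 40 of 87 UMIs for Acta2, 43 of 134 for Tagln and 36 of 58 for Cxcl10. Of the 7 contractile genes compared 2 were lower with more Spp1, and of 6 matricellular genes 0 differed 2-fold either way.

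Postn had 1 pericyte at 0, so the 113 cells with the most were set against the 113 with the least. Of 3830 genes compared, 19 (0.496%) were 2-fold higher with more Postn and 47 (1.23%) were lower. Lepr, the leptin receptor, was 2.10-fold higher (1.58 to 2.83), with 146 UMIs in 72 cells against 72 UMIs in 50 cells. Acta2 was 27.2-fold higher in the cells with little Postn, with 226 UMIs in 11 of them, 67 of which came from 1 cell, and Tagln 5.88-fold. S100a6, Thbs1, Mustn1, Gdf15, Apoe and Igfbp7 were 3.38- to 5.03-fold higher there. The cell with 67 Acta2 UMIs was 1 of the 17 cells without Spp1. Those 17 held 272 of the 386 Acta2 UMIs of recipient pericytes. They were not taken out of this comparison, so it is not separate from the one by Spp1. Contractile genes were lower with more Postn in 3 of 7 and matricellular genes in 2 of 8.

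Few of the related genes shared the pericyte pattern. Of 21 matricellular genes with at least 50 UMIs in the recipient types, 3 were at least 2-fold higher in pericytes than in every other type of at least 20 cells, where 2.89% of all 11932 genes were. They were Spp1 and Postn, for which this is how they were chosen, and Ccn4, at 201 CPM in pericytes and 21.0 CPM in the next type. Smooth muscle, with 9 recipient cells, was below that minimum in all such counts. Those cells held 22 Postn UMIs in 4 cells, 398 CPM (250 to 603), and 7 Spp1 UMIs, 127 CPM (50.9 to 261). Sparc, a collagen-binding matricellular protein, was at 4030 CPM in pericytes and 3903 CPM in alveolar type 1 cells. Thbs1 was highest in myofibroblasts (2839 CPM against 49.5 in pericytes), Ccn1 in alveolar fibroblasts (2672 against 643), and Fbln1 in adventitial fibroblasts (1266 against 28.0). The other members of osteopontin's family, Ibsp, Dmp1, Dspp and Mepe, were at 0 UMIs in every recipient type, where a low level can be missed.

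**Figure D4:**
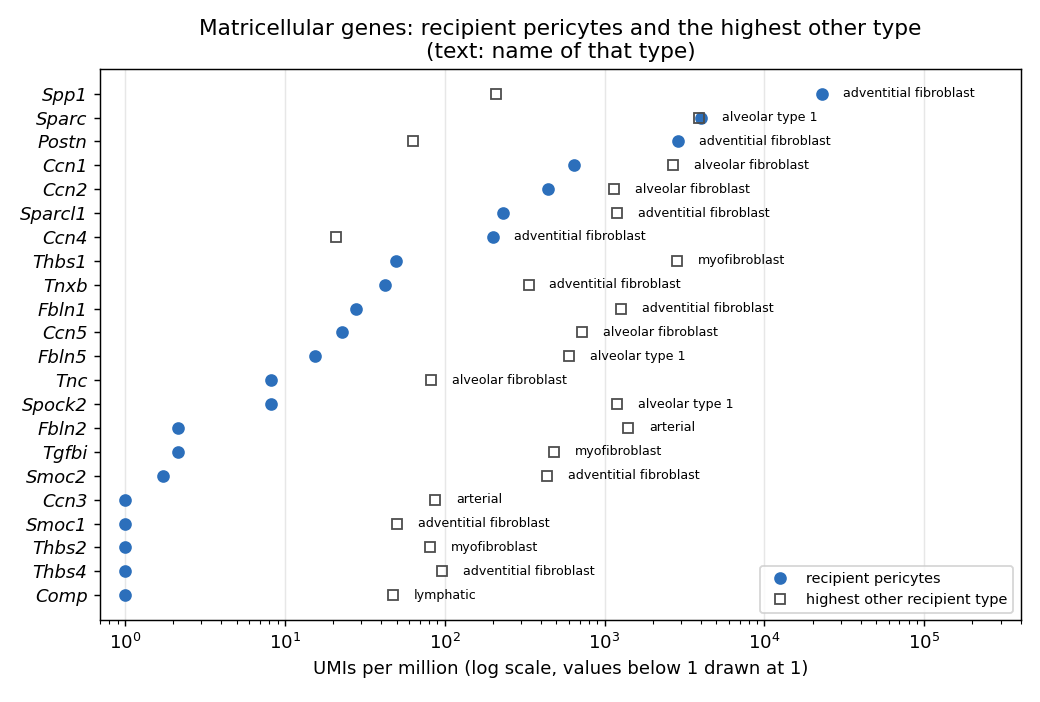
Level of the 22 matricellular genes in recipient pericytes (filled circles) and in the recipient type with the highest level among the rest with at least 20 cells (open squares, type named), in CPM on a log axis with values below 1 drawn at 1. Spp1, Postn and Ccn4 stand well above every other type, Sparc is level with alveolar type 1 cells, and the other genes are higher elsewhere.

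Receptors of the 2 proteins were spread over the types. Of 10 receptor genes, 1 was 2-fold higher in pericytes than in every other type, Itga4 at 21.5 CPM, against the 2.89% of all 11932 genes, so these counts do not set the receptors apart from other genes. Itgb1, the common beta subunit, was at 905 CPM in pericytes and 529 CPM in aerocytes, Itgb5 at 200.5 CPM in pericytes and 253 CPM in aerocytes, and Itgav at 49.0 CPM in pericytes. Itgb3 was at 0 UMIs in recipient pericytes, and Cd44 was at 35.7 CPM against 196 CPM in myofibroblasts. Of 9 genes for periostin's partners in the matrix, 0 were 2-fold higher in pericytes, where the same 2.89% applies. Fn1 (fibronectin) and Lox (lysyl oxidase) were at 7.31 and 3.44 CPM in pericytes and at 861 and 283 CPM in alveolar fibroblasts. Col1a1 was at 210.4 CPM in pericytes and 2336 CPM in adventitial fibroblasts, and Bmp1, which cleaves matrix precursors, at 31.8 and 55.5 CPM. Of 15 pericyte signalling genes, a list that shares members with the gate, 6 were 2-fold higher in pericytes against 2.89% of all genes: Pdgfrb and Notch3, which the gate used, and Notch2, Heyl, Agtr1a and Rgs4.

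Over the 13 sums of a library and a type with at least 30 cells, the gene most like Spp1 was Lipg (endothelial lipase, Pearson correlation of log2(CPM + 1) 0.978), followed by Cstdc2 and Postn (both 0.971). Pcdh18 and Fam162b followed at 0.971 and 0.966. For Postn, Spp1 came first, followed by Lipg (0.966), Pcdh18 (0.963), Cstdc2 (0.962) and Il34 (0.958), among 10834 genes. Each of these genes was highest in pericytes, with Lipg at 1294 CPM there and 20.3 CPM in the next type. Sums of 1 library share its free RNA. Both genes were chosen as high in pericytes, so their likeness over these sums was in part set by that choice. Without the pericyte sum, Spp1 and Postn correlated at 0.926 over 12 sums. Those sums came from both libraries, and both genes were lower in the donor one. In donor and recipient aerocytes Spp1 was at 8.78 and 54.4 CPM and Postn at 1.45 and 8.14 CPM. Such a shared difference raises the correlation, so it is given as a description.

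Fibroblasts and myofibroblasts held low levels of both genes that rested on a few cells. In the recipient library Spp1 was at 209 CPM (185 to 235) in 136 adventitial fibroblasts, 169.6 CPM (157 to 183) in 587 alveolar fibroblasts and 132 CPM (110 to 158) in 140 myofibroblasts. Of the 279 Spp1 UMIs in adventitial fibroblasts 226 were in 1 cell, of the 659 in alveolar fibroblasts 449 were in 4 cells (23, 104, 135 and 187), and of the 120 in myofibroblasts 72 were in 1 cell. Each of these 6 cells held 5 to 7 of the 8 pericyte markers. Without the cells with 5 or more UMIs of the pericyte panel, a choice that did not use Spp1, its levels were 44.3 CPM (31.8 to 60.1) in adventitial fibroblasts, 52.9 CPM (45.8 to 60.7) in alveolar fibroblasts and 54.0 CPM (39.6 to 71.8) in myofibroblasts. The endothelial and alveolar type 1 cells lay between 33.7 and 67.9 CPM. Postn was at 63.0, 36.0 and 26.4 CPM in the same order with all cells. Without the cells with pericyte panel UMIs it was 8.19 CPM in alveolar fibroblasts and 8.04 CPM in myofibroblasts, but 43.2 CPM (30.9 to 58.9) in adventitial fibroblasts. In adventitial fibroblasts 3 cells held 73 of 84 Postn UMIs, and 2 of the 3 had 5 or more UMIs of the pericyte panel. Donor fibroblasts numbered 4 of each kind and held 0 Spp1 UMIs, which allows up to 169.9 CPM in the alveolar and 108 CPM in the adventitial ones, and 1 Postn UMI in all.

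In endothelial cells both genes stood at a small part of their pericyte level. Recipient Spp1 was at 65.8 CPM (55.5 to 77.5) in general capillary cells, 54.4 (47.7 to 61.9) in aerocytes, 67.9 (37.1 to 114) in arterial, 49.7 (34.2 to 69.8) in venous and 67.2 in lymphatic cells, and the intervals of neighbours in this order overlapped. These levels were 0.217% to 0.297% of the pericyte level. Donor general capillary cells and aerocytes held 10.5 and 8.78 CPM of Spp1 and 2.11 and 1.45 CPM of Postn. Over all barcodes Spp1 was at 329 CPM in the donor library and 3035 CPM in the recipient library. No recipient endothelial cell held more than 7 Spp1 UMIs, and 1 donor aerocyte held 20.

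Recipient Postn was at 16.5 CPM in general capillary cells, 8.14 in aerocytes, 19.4 in arterial and 6.02 in venous cells, 0.209% to 0.673% of the pericyte level, and the intervals of general capillary cells (11.5 to 22.8) and aerocytes (5.67 to 11.3) did not overlap. In recipient general capillary cells Gucy1a1, Gucy1b1, Vtn, Kcnk3 and Art3 stood at 0.433%, 0.562%, 0.487%, 0.279% and 0.588% of their pericyte levels. They were more spread in recipient aerocytes, from 0.142% (Kcnk3) to 0.897% (Art3). In donor general capillary cells they ran from 0.018% (Kcnk3) to 0.933% (Art3), with Spp1 at 0.036% and Postn at 0.069%. Mcam, also outside the gate, was far above these shares in the recipient library. It stood at 35.8% of its pericyte level in general capillary cells, 14.4% in aerocytes, 42.4% in arterial and 30.3% in venous cells. Rgs5 had too few UMIs to be placed in recipient endothelial cells, with 0 in general capillary cells and 1 in aerocytes. In the donor library venous cells held 96 Rgs5 UMIs, 118 CPM, against 21.4 CPM in donor pericytes. Lymphatic cells had the highest endothelial Postn level, with 17 UMIs in 9 of 63 cells, 47.6 CPM (27.7 to 76.2) or 1.65% (0.962 to 2.64) of the pericyte level. This rested on few cells, since without the 5 highest it was 12.04 CPM, and the interval of arterial cells (0.183% to 1.72%) overlapped it. They held 1.41 Spp1 UMIs per Postn UMI (0.727 to 2.80), against 7.94 (7.74 to 8.14) in pericytes, 6.69 (4.67 to 9.83) in aerocytes and 4.00 (2.76 to 5.94) in general capillary cells. Gucy1b1 was at 1.24% and Art3 at 2.88% of their pericyte levels in lymphatic cells, and the source of these UMIs was not tested.

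**Figure D5:**
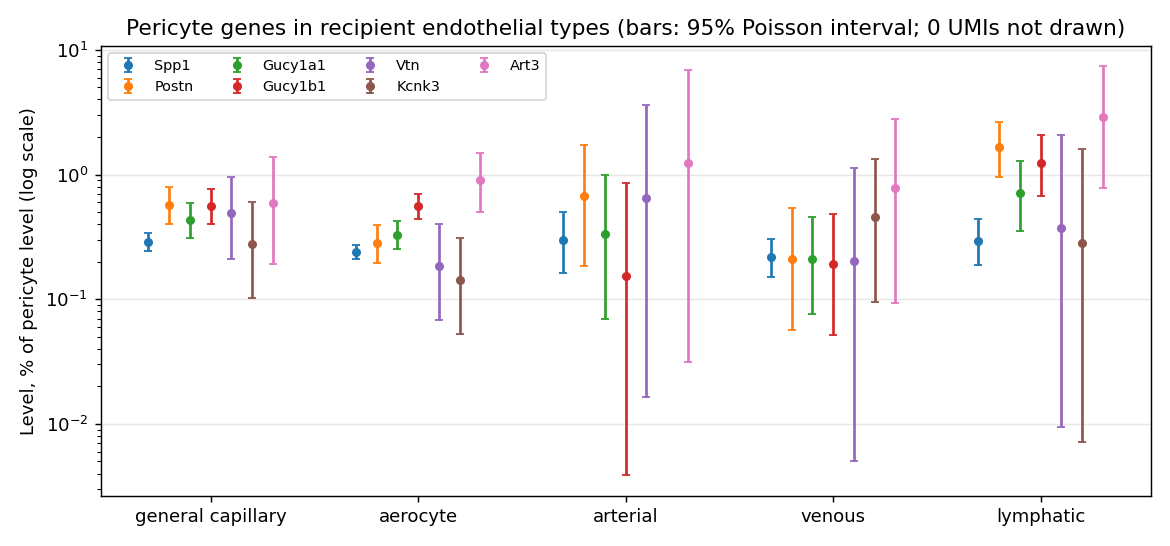
Level of Spp1, Postn and 5 other pericyte genes in recipient endothelial types, as % of the level in recipient pericytes on a log axis; bars are 95% Poisson intervals and genes with 0 UMIs are not drawn. Spp1 lies between 0.217% and 0.297% in all 5 types, and Postn reaches 1.65% in lymphatic cells. Mcam and Rgs5 are not drawn.

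The UMIs outside the gated types lay in cells with pericyte transcripts. Of the Spp1 UMIs in the cells used, 70.6% were in gated pericytes in the recipient library and 41.4% in the donor library, and ungated cells held 27.3% and 55.8%. Of the 5440 ungated donor Spp1 UMIs, 2565 were in the 27 cells with the pericyte panel first that exceeded the lineage limit, and 2409 in 189 such cells with another panel first. Of the latter, 2370 were in cells with 5 or more UMIs of the pericyte panel. In the recipient library these 2 classes held 13583 and 6232 Spp1 UMIs.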

How the data were processed

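Per the labels' protocols and the submitters' processing notes, the deposited matrices hold whole-number UMI counts, not normalized, for each gene in each barcode that Cell Ranger kept, on mm10. The matrix headers and the processing notes give version 4.0.0 and the protocol 3.0.1. The protocol's integrated values and a dataset of other cells were not analysed here.

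The 2 genes, the marker panels and the gene lists were chosen with earlier results of these data known. Barcodes beyond 3 scaled median absolute deviations of their library were left out, which kept 4987 and 3311, as was the smaller copy of a shared barcode. A cell was given the type with the highest share of its panel detected, with at least 2 markers and 3 UMIs, and at most 2 UMIs from lists of other lineages. No doublet caller was used in the main values, and the lineage limit acts on mixes with other lineages, not on mixes of mesenchymal types. A class cut this way rests on its markers, and the names may differ from the study's own.

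UMIs were summed per library and type and scaled to CPM. Levels carry exact Poisson intervals, shares Clopper-Pearson intervals and ratios exact conditional intervals. A gene at 0 was compared at a floor of 3 counts over the group, and where that floor lay above the other group's level the gene was given no direction. Within recipient pericytes, genes with at least 50 UMIs in both sets of cells together were compared, and called at 2-fold. The named genes were, up to 8 each way, those with the largest ratio, at least 50 CPM in the higher set, an interval beyond 1.5-fold, and still 2-fold without the cell with the most UMIs. Never named were gene models without a symbol and genes of mitochondria, ribosomal proteins, haemoglobin or sex chromosome markers. List members could be named with their values. The 5 genes most alike were taken among genes with at least 200 UMIs. One list gene was not found by its symbol. The ratio and thinning steps were tested on simulated data. Python 3.11.15, numpy 2.4.6, scipy 1.17.1 and scikit-learn 1.9.0 were used.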

Additional observations from a re-analysis of the deposited data

How the results depend on the processing

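No paired analysis was possible because each group held 1 library. Among comparisons of the pericyte values and gene counts with an alternative, 88 stayed within the interval of the main value or within 1.5 times a count, 37 moved further and 1 turned around. With a limit of 5 UMIs of other lineages, Spp1 was at 23606 CPM in donor and 23141 CPM in recipient pericytes, a ratio of 1.02. With a limit of 0 it was at 21955 CPM in the recipient, and too few donor pericytes were left. Without the cell filter, donor Spp1 was at 26993 CPM, Postn at 3469 CPM in donor and 2962 CPM in recipient pericytes, and the ratios were 1.18 for Spp1 and 1.17 for Postn. With fixed filter limits Postn was at 3611 and 2965 CPM, a ratio of 1.22. Recipient Spp1 was at 23767 CPM without either copy of shared barcodes (ratio 1.21), 23081 CPM without the highest doublet scores, 23877 CPM as the mean of the cells and 23989 CPM after thinning (ratio 1.21), where Postn was at 2993 CPM, found in 98.0% of cells.

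Without the 5 highest cells, Spp1 was at 25697 CPM in donor and 22445 CPM in recipient pericytes, a ratio of 1.14. That took 5 of 28 donor and 5 of 452 recipient cells, a larger part of the donor sum, which by itself lowers the ratio. In the cells over the lineage limit, an alternative chosen after seeing the data, Spp1 was at 13179 and 20728 CPM and Postn at 2328 and 2411 CPM, Spp1 was found in 81.5% of donor and 100% of recipient cells, and Postn in 100% of recipient cells. The Spp1 ratio there was 0.636, below 1, and the cause was not tested. Against the 984 genes higher and 361 lower with Spp1, thinned cells gave 531 and 223. Chosen after seeing the data, the highest against the lowest 25% of cells gave 19 and 60, and the same split among cells with 3 or more Spp1 UMIs 7 and 31. A minimum of 20 UMIs gave 847 lower.

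Outside pericytes 234 comparisons of levels stayed within the main interval and 72 moved further, most of them in fibroblasts and myofibroblasts. Spp1 ran from 52.7 to 170.2 CPM in alveolar fibroblasts, 35.1 to 212 CPM in adventitial fibroblasts and 38.9 to 135 CPM in myofibroblasts. With the aerocyte level subtracted, Spp1 in general capillary cells was 11.4 CPM in the recipient and 1.71 CPM in the donor library, and without subtraction its recipient level ran from 60.3 to 78.4 CPM. Postn in lymphatic cells was 12.04 CPM without the 5 highest cells and 44.9 to 71.6 CPM otherwise. The 17 cells without Spp1 hold 90415 UMIs, so 1 UMI among them stands for 11.1 CPM, and lower levels there were not detectable.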
